A study of Mus musculus with 14 samples.

Results

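The cathepsins described here are 10 mouse protease genes, Ctsa, Ctsb, Ctsc, Ctsd, Ctse, Ctsg, Ctsh, Ctsl, Ctss and Ctsz. They were chosen by name and matched by gene symbol, and they make up 10 of the 55487 genes in the count table. Each was measured by RNA sequencing in 14 libraries, each from a small pool of mast cells sorted out of mouse ears. Untreated resident mast cells gave 5 libraries (1 to 5). Resident mast cells from mice treated with MC903, a vitamin D analogue (calcipotriol) used on skin to produce an atopic dermatitis-like inflammation, gave 5 libraries (6 to 10). The remaining 4 libraries (11, 13, 14 and 15) also came from mice given MC903 and carry the label bone marrow mast cells. As the extraction protocol lists 2 sorts, resident and integrin β7-positive, this group is taken here to be the integrin β7-positive one, which no label states. Both sorts were collected from ears, per the protocol. The labels name no genetic change, and strain, age, sex, MC903 dose and days of treatment are not given in the sources used here. No label ties a library to an animal, so p-values measure the spread between these libraries, which may be partly technical.

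Cathepsins are proteases that mostly work in the acid interior of lysosomes, where they break down proteins, and in secretory granules, which in mast cells are lysosome-related. They fall into classes by catalytic residue: Ctsg and Ctsa are serine enzymes, Ctsd and Ctse are aspartic enzymes, and Ctsb, Ctsc, Ctsh, Ctsl, Ctss and Ctsz are cysteine enzymes of the papain type. In mast cells, cathepsin G is a granule protease with chymotrypsin-like activity, and cathepsin C trims the amino end of granule proteases such as chymases and so activates them. Cathepsins S and L are best known from antigen-presenting cells, where they process the invariant chain and antigens for MHC class II.

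Total counts per library ranged from 13068078 to 31781926. The 10 mast cell markers examined (Kit, Fcer1a, Ms4a2, Cpa3, Cma1, Mcpt4, Tpsb2, Hdc, Gata2 and Il1rl1) were detected in every library, with a summed level between 85427 and 161129 CPM (counts scaled by the library total and its TMM factor). Library 15 stood apart from the other 3 bone marrow libraries. Its 9 macrophage markers (Adgre1, Csf1r, Cd68, Lyz2, C1qa, C1qb, C1qc, Mrc1 and Fcgr1) summed to 12341 CPM, against 80.2 to 346 CPM in libraries 11, 13 and 14, 49.4 to 173 CPM in MC903 resident and 56.6 to 138 CPM in untreated resident libraries. All 9 of 9 were higher in library 15 than in any of the other 13 libraries. C1qc and Fcgr1 were at 0 in libraries 11, 13 and 14, and C1qa and C1qc were at 0 in all untreated libraries. The 10 dendritic and Langerhans cell markers summed to 4352 CPM in library 15 and to 9.13 to 97.2 CPM in the other 13, and the mast cell markers summed to 102225 CPM in it, against 129996 to 155936 CPM in libraries 11, 13 and 14. Library 15 also had counts for 32814 genes, against 16025 to 19817 in those 3. Calls and fitted differences of the cathepsins in bone marrow cells are therefore given with and without library 15, and those of the related gene lists without it are given after the lists.

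The upstream sequences shown here belong to cathepsins on which the results turn. Ctsg and Ctsc were both called in bone marrow cells, and Ctsd and Ctsa hold the letters CACGTG, the palindromic E-box core bound by TFEB and related factors that act on lysosomal genes. RefSeq upstream windows (GRCm38.p6, the 250 bases before each listed start) were at hand for 8 starts of 7 members (Ctsa, Ctsc, Ctsd, Ctsg, Ctsl, Ctss and Ctsz). The windows of Ctsg and Ctsc overlap no exon of GENCODE M21 and are printed whole, 5′ to 3′ along the gene. They would carry capitals at CACGTG or at GATAA on either strand, the core of GATA factor sites, and they hold neither.
Ctsg, chr14:56102575-56102824, minus strand: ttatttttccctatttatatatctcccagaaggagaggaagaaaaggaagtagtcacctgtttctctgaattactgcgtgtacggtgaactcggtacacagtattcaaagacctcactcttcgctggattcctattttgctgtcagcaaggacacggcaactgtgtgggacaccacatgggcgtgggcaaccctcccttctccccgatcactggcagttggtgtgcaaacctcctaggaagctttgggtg
Ctsc, chr7:88277835-88278084, plus strand: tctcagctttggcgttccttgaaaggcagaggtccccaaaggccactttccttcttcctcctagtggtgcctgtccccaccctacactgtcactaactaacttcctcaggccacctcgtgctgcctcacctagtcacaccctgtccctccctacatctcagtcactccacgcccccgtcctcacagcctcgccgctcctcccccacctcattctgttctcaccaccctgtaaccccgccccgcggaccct
For Ctsd and the downstream start of Ctsa, 30 bases around each match are printed, with CACGTG in capitals.
Ctsd, chr7:142388048-142388077, minus strand: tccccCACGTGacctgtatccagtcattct
Ctsd, chr7:142387908-142387937, minus strand: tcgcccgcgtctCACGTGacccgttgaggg
Ctsa, chr2:164833743-164833772, plus strand: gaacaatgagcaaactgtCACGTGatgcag
The matches begin 245 and 98 bases before the Ctsd start and 12 bases before the Ctsa start, and the last 2 of these 3 windows lie over exons that GENCODE M21 gives the same gene. Ctsl has 1 match, 236 bases before its start, and the 30 bases around it also overlap an exon that GENCODE M21 gives Ctsl. CACGTG was thus found at 3 of the 8 starts, 1 of the 2 Ctsa starts among them, and at 6.02% of the 32851 starts in the table. GATAA or its complement was found at 1 of the 8, that of Ctsz, in 2 places, against 22.58% of all starts. A match describes these letters and is no evidence of binding.

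In resident cells under MC903, 1 of the 10 cathepsins was called at an edgeR adjusted p under 0.05, and the background was 2.25% of the 21014 genes tested (0.571% higher and 1.68% lower). That gene was Ctsd, encoding cathepsin D, which was higher. Between bone marrow and resident cells of MC903-treated mice, Ctsg and Ctsc were called, both higher in bone marrow cells (2 of 10, against 2.27% of all genes, 1.32% higher and 0.952% lower). Against untreated resident cells, 6 of 10 were called, all higher in bone marrow cells: Ctsa, Ctsc, Ctsg, Ctsh, Ctss and Ctsz. The background there was 6.87% of all genes (3.49% higher and 3.37% lower). Ctsh passed the filter on low counts only through libraries of the MC903 groups, which fixed its direction against untreated cells, and without it the count was 5 of 9.

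With library 15 left out, 24370 genes were tested. Ctsd was again called higher and Ctsg was now called lower in MC903 resident against untreated cells, beside 2.43% of all genes (0.624% higher and 1.81% lower). Ctsg and Ctsc were the 2 called between bone marrow and MC903 resident cells, beside 2.89% of all genes (1.35% higher and 1.54% lower). Against untreated cells 4 were called higher in bone marrow cells, Ctsa, Ctsc, Ctsd and Ctsg, beside 6.36% of all genes (2.95% higher and 3.41% lower). Ctsh, Ctss and Ctsz were no longer called there, and Ctsd was added. The comparisons share groups, so they are not independent of each other. When a log2 fold change above 1 was required, Ctsg alone of the 6 stayed called against untreated cells.

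The libraries of 2 groups did not overlap for 1 of 10 cathepsins in the resident comparison, Ctsd, against 5.33% of all genes tested (2.13% higher and 3.2% lower). Bone marrow and MC903 resident libraries did not overlap for Ctsc, Ctsg and Ctss, 3 of 10 and all higher in bone marrow cells, against 8.29% of all genes (4% higher and 4.29% lower). Bone marrow and untreated libraries did not overlap for Ctsa, Ctsc, Ctsg and Ctss, 4 of 10 and all higher, against 10.4% of all genes (5.11% higher and 5.27% lower). Without library 15 the same 3 genes were clear of the MC903 resident libraries, against 14.4% of all genes (5.19% higher and 9.21% lower). Against untreated libraries 6 were then clear, with Ctsd added above and Ctsl below, against 13.8% of all genes (6.07% higher and 7.76% lower).

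The median log2 fold change over the 10 cathepsins was 0.33 in MC903 resident against untreated resident cells, beside 0.24 over all genes tested. In bone marrow against MC903 resident cells it was 1.99, beside -0.28, and without library 15 it was 0.58, beside -0.84. For bone marrow against untreated resident cells it was 1.89, beside -0.14, and 0.88, beside -0.62, without library 15. Over the 9 genes other than Ctsh the medians with all libraries were 0.19, 1.96 and 1.62 in the same order, and without library 15 the bone marrow ones were 0.53 and 0.64. All 10 genes passed the filter on low counts. In these pooled cells, a smaller number of cells of a type and less RNA per cell cannot be told apart.

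**Figure D1:**
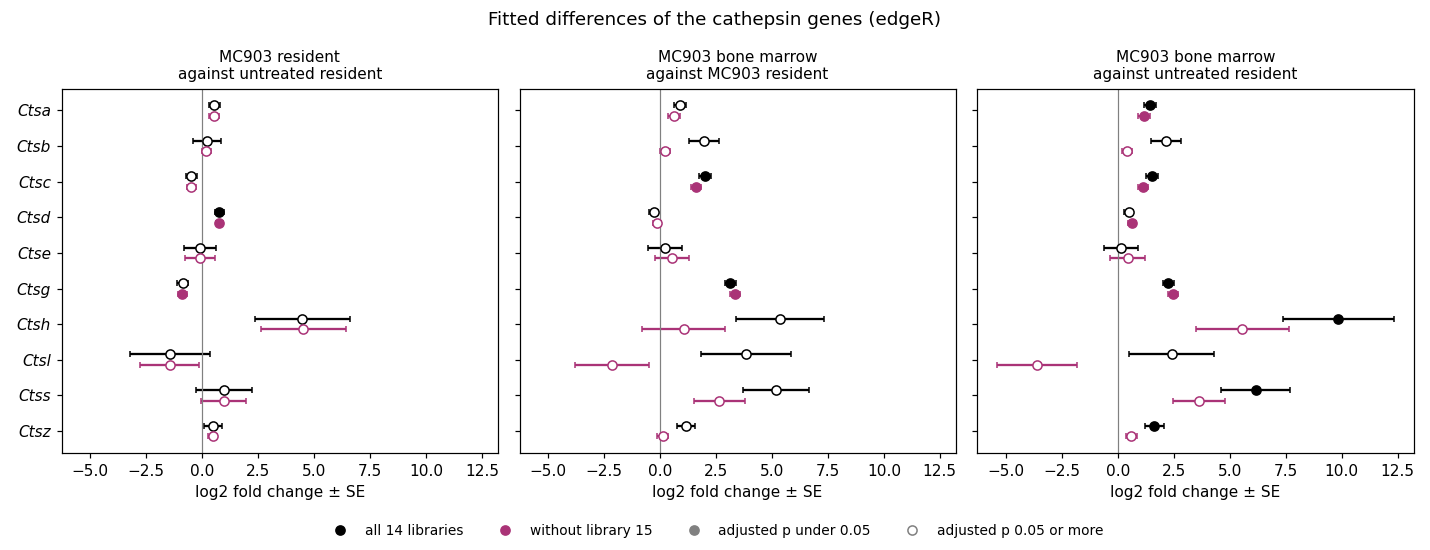
Fitted log2 fold changes (edgeR) of the 10 cathepsin genes, with bars of 1 standard error, in the 3 comparisons; black is the fit of all 14 libraries, purple the fit without library 15, and filled points have an adjusted p under 0.05. Ctsg and Ctsc lie right of 0 with filled points in both bone marrow comparisons in either fit, while Ctsl moves from right to left of 0 when library 15 is left out.

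Ctsg (ENSMUSG00000040314.2, chr14:56099881-56102574, minus strand) encodes cathepsin G, the granule serine protease, and showed the highest fold change of the members that were called in both bone marrow comparisons in either fit. It was at 371, 423, 543, 348 and 661 CPM in untreated resident libraries 1 to 5 and at 239, 239, 175, 249.7 and 367 CPM in MC903 resident libraries 6 to 10. In bone marrow libraries 11, 13, 14 and 15 it was at 2192, 2793, 2728 and 1245 CPM. Every bone marrow library lay above every resident library, and library 15 was the lowest of the 4.

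Markers of other cells also differed in the bone marrow group. The 10 T cell markers summed to 7.62 to 84.5 CPM in its 4 libraries, above the untreated range of 0.0750 to 6.72 CPM and overlapping the MC903 resident range of 6.30 to 44.0 CPM. The 6 basophil markers summed to 6761 to 8136 CPM in libraries 11, 13 and 14 and to 3602 CPM in library 15, against 3844 to 4467 CPM in untreated and 6003 to 9797 CPM in MC903 resident libraries. Without Fcer1a and Gata2, which are also on the mast cell list, the other 4 summed to 1547, 790.0, 693 and 291 CPM in libraries 11, 13, 14 and 15, against 534 to 822 and 492 to 754 CPM. Among those, Mcpt8, a basophil protease gene, was at 979, 206 and 83.5 CPM in libraries 11, 13 and 14, above the highest resident library (57.1 CPM), and at 46.2 CPM in library 15. Itga2 went the other way, at 36.1, 36.1, 27.6 and 22.7 CPM in libraries 11, 13, 14 and 15, below the lowest resident library (53.0 CPM). In libraries 11, 13 and 14, Cd200r3 (527, 533 and 582 CPM) lay within its resident range of 420 to 711 CPM. So did Prss34 (4.77, 15.9 and 0.384 CPM), with a resident range of 0 to 41.7 CPM. The 10 neutrophil markers, of cells that also carry cathepsin G, summed to 0.0853 to 0.348 CPM in libraries 11, 13 and 14 and to 74.6 CPM in library 15. In library 15, 6 of these 10 were at 0: S100a8, S100a9, Retnlg, Elane, Ngp and Camp. Of the macrophage markers, Cd68 was at 162, 74.2 and 69.5 CPM in libraries 11, 13 and 14, above the highest resident library (68.1 CPM). Adgre1, Csf1r and Mrc1 were at 0 in libraries 11 and 13. The part of these other cells in the cathepsin differences of this group was not tested.

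Compared with MC903 resident cells, Ctsg was 8.78-fold higher in bone marrow cells (3.13 ± 0.26 (SE) on the log2 scale, edgeR adjusted p 1.24e-06). Without library 15 the log2 difference was 3.34 ± 0.23 (SE). Against untreated resident cells it was 2.26 ± 0.25 (SE), with an adjusted p of 7.46e-06, and 2.45 ± 0.22 (SE) without library 15. Between the resident groups the direction was the opposite: the log2 difference was -0.88 ± 0.23 (SE), with an adjusted p of 0.0514, which missed the threshold. The 2 resident groups overlapped through 1 library of each, library 10 at 367 CPM and library 4 at 348 CPM. This difference passed the threshold in 8 of 13 other settings, among them the fit without library 15 (-0.89 ± 0.20 (SE), adjusted p 0.0116), and in 1 of 10 fits that left out a resident library (library 10, -1.04, adjusted p 0.0213).

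Ctsc (ENSMUSG00000030560.17, chr7:88278085-88310888, plus strand) encodes cathepsin C, or dipeptidyl peptidase I, an activator of granule serine proteases such as chymases. Its levels were 489, 307, 441, 379 and 466 CPM in untreated resident, 346, 215, 206, 391 and 323 CPM in MC903 resident and 717, 973, 1027 and 2080.5 CPM in bone marrow libraries. The bone marrow libraries were all above both resident groups, which overlapped each other, and library 15 was the highest. Bone marrow minus MC903 resident cells gave a log2 difference of 2.02 ± 0.27 (SE) (edgeR adjusted p 0.000159), and 1.61 ± 0.22 (SE) (adjusted p 7.43e-05) without library 15. Against untreated cells the differences were 1.53 ± 0.26 (SE) and, without library 15, 1.12 ± 0.22 (SE), with adjusted p of 0.000786 and 0.00174. In resident cells under MC903 the value was -0.49 ± 0.25 (SE) and did not pass (adjusted p 0.450).

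**Figure D2:**
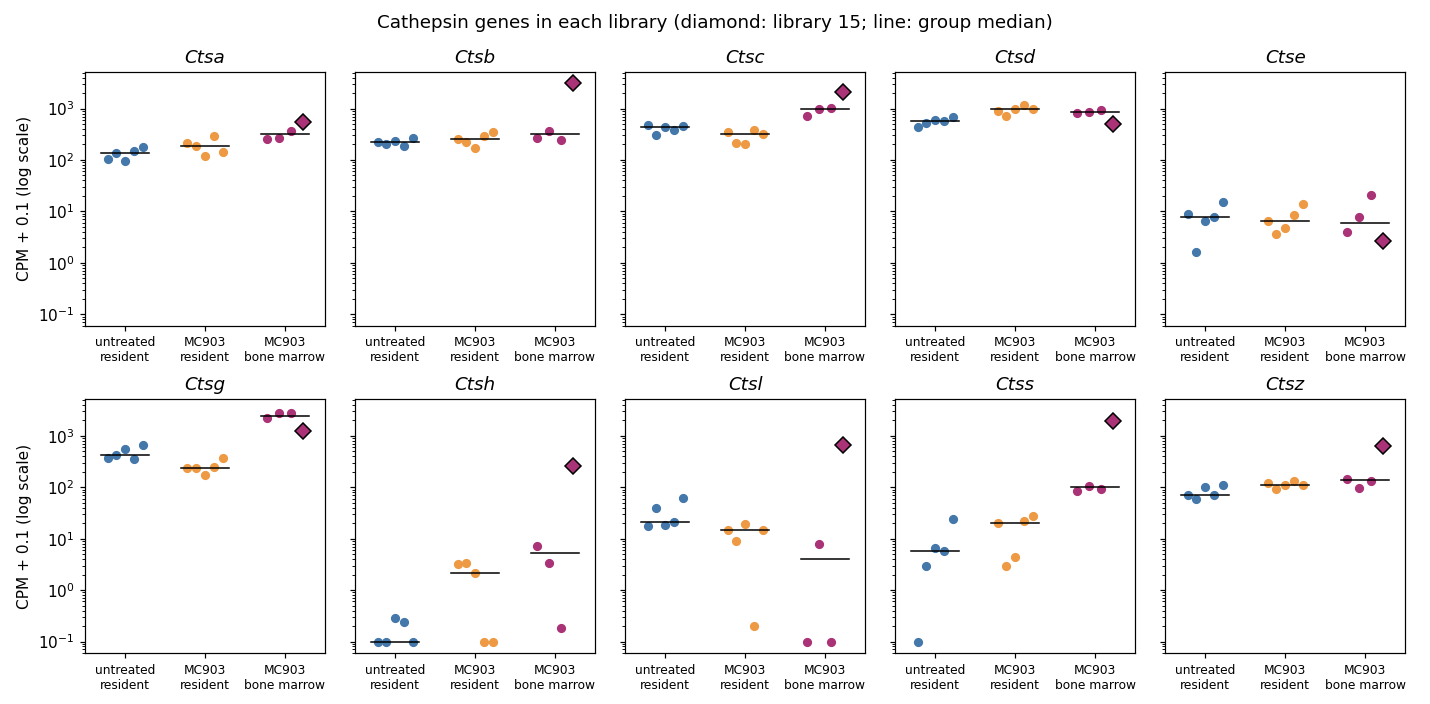
CPM plus 0.1, on a log axis, of each cathepsin gene in the 14 libraries by group; each point is 1 library, the diamond is library 15 and the line is the group median. For Ctsg and Ctsc all 4 bone marrow points lie above all resident points, and for Ctsb, Ctsh, Ctsl, Ctss and Ctsz the diamond lies far above every other point.

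Ctsd (ENSMUSG00000007891.16, chr7:142375911-142388038, minus strand) encodes cathepsin D, the main aspartic protease of lysosomes. It was at 446, 520.3, 590.4, 575 and 679.6 CPM in untreated resident libraries and at 916, 732, 989, 1164 and 967 CPM in MC903 resident libraries. All 5 treated libraries were above all 5 untreated ones. Ctsd was thus 1.70-fold higher under MC903 (0.77 ± 0.18 (SE) on the log2 scale, edgeR adjusted p 0.0229), and 0.76 ± 0.16 (SE) in the fit without library 15 (adjusted p 0.00580). The basophil markers, with sums given above, did not overlap between these groups, but did so without Fcer1a and Gata2, and the T cell marker ranges met at their ends. Their part in the Ctsd difference was not tested. The call was lost without untreated library 2 (0.76, adjusted p 0.0508) and with an offset for GC content (0.64, adjusted p 0.0869).

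In bone marrow libraries Ctsd was at 824, 856, 941 and 506 CPM, with library 15 the lowest of the 4. Libraries 11, 13 and 14 lay above every untreated library and within the range of the MC903 resident group. Against untreated cells the difference was 0.48 ± 0.19 (SE) (adjusted p 0.145) with library 15 and 0.64 ± 0.18 (SE) (adjusted p 0.0303) without it. With library 15 in, it also passed with limma voom (0.57, adjusted p 0.0133) and among genes of 10 CPM or more (0.50, adjusted p 0.0418). Against MC903 resident cells it was -0.29 ± 0.19 (SE), or -0.13 ± 0.18 (SE) without library 15, and neither passed (adjusted p 0.446 and 0.682). Of the 50-base stretches of Ctsd transcripts, 32.4% also occur in Gm49369, a gene annotated over the same strand that held 0 counts in every library, so the split of reads between them is uncertain.

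Ctse (ENSMUSG00000004552.16, chr1:131638306-131675505, plus strand), the other aspartic member, encodes cathepsin E, an endosomal protease. It was low in all groups, at 8.82, 1.56, 6.48, 7.68 and 14.99 CPM in untreated resident, 6.48, 3.61, 4.59, 8.49 and 13.8 CPM in MC903 resident and 3.81, 7.65, 20.6 and 2.56 CPM in bone marrow libraries. The 3 groups overlapped. None of its differences passed (adjusted p 0.916 to 0.985, and 0.690 to 0.981 without library 15), and their sign changed with the library left out.

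Ctsa (ENSMUSG00000017760.16, chr2:164832873-164841032, plus strand) encodes cathepsin A, a serine carboxypeptidase that also protects β-galactosidase (Glb1) and neuraminidase (Neu1) in the lysosome. It was at 103, 134, 96.2, 151 and 176 CPM in untreated resident, 215, 185, 121, 289.6 and 144 CPM in MC903 resident and 255, 269, 359 and 545 CPM in bone marrow libraries. Bone marrow libraries did not overlap with untreated ones, and overlapped with MC903 resident ones only through resident library 9. Relative to untreated cells Ctsa was higher by 1.44 ± 0.27 (SE) on the log2 scale (edgeR adjusted p 0.00168), and by 1.16 ± 0.25 (SE) (adjusted p 0.00563) without library 15. Against MC903 resident cells it was 0.90 ± 0.27 (SE), or 0.63 ± 0.26 (SE) without library 15, and did not pass (adjusted p 0.0902 and 0.113), nor did the difference between the resident groups, 0.54 ± 0.25 (SE) (adjusted p 0.383). With library 15 in, the difference from MC903 resident cells passed with no filter on low counts (0.96, adjusted p 0.00508) and with limma voom (0.76, adjusted p 0.0398). Exons of Neurl2 and Pltp overlap Ctsa on the opposite strand. The strand setting of the counting is not given in the sources used here, so their reads may not be told apart.

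Ctsz (ENSMUSG00000016256.10, chr2:174427493-174439039, minus strand) encodes cathepsin Z, a carboxypeptidase of the papain family. It was at 72.0, 58.1, 103, 69.9 and 113 CPM in untreated resident, 123, 93.7, 112, 131 and 112 CPM in MC903 resident and 147, 95.5, 132 and 641 CPM in bone marrow libraries. Library 15 was 5.14 times the mean of the other 3 bone marrow libraries, which lay within or just above the range of the resident groups. The difference from untreated cells, 1.62 ± 0.42 (SE) with an edgeR adjusted p of 0.0228, was 0.59 ± 0.24 (SE) (adjusted p 0.144) without library 15. It also lost the threshold without untreated library 1, 2 or 4, with limma voom, with an offset for gene length or GC content, and with only the groups compared in the fit. Against MC903 resident cells it was 1.15 ± 0.41 (SE), or 0.13 ± 0.25 (SE) without library 15, and did not pass (adjusted p 0.158 and 0.775), except with library 15 in and no filter (1.22, adjusted p 0.000832). Nelfcd overlaps Ctsz on the opposite strand, with the same uncertainty as for Ctsa.

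Ctss (ENSMUSG00000038642.10, chr3:95526786-95556403, plus strand) encodes cathepsin S, the cysteine protease of antigen-presenting cells that stays active at neutral pH. It was at 0, 2.86, 6.45, 5.55 and 24.5 CPM in untreated resident, 20.1, 2.80, 4.21, 21.8 and 27.8 CPM in MC903 resident and 85.2, 107, 93.5 and 1939.8 CPM in bone marrow libraries. Libraries 11, 13 and 14 lay in a narrow range above all 10 resident libraries, and library 15 was 20.4 times their mean.

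For Ctss the fitted difference from untreated cells was 6.15 ± 1.55 (SE) on the log2 scale (edgeR adjusted p 0.0350), and 3.60 ± 1.17 (SE) (adjusted p 0.101) without library 15. Without libraries 7, 8 and 15 it was 3.58 ± 0.94 (SE) and passed (adjusted p 0.0328). With library 15 in, the call was lost without untreated library 2, 3 or 4, with no filter on low counts and with limma voom, where the difference stayed between 5.94 and 6.17 (adjusted p 0.0789 to 0.0846). The DESeq2 Wald test gave Ctss no adjusted p, and so no call. Against MC903 resident cells the difference was 5.18 ± 1.48 (SE), or 2.64 ± 1.14 (SE) without library 15, and neither passed (adjusted p 0.107 and 0.133). The macrophage markers were at their highest in the same library 15 (12341 CPM), and in libraries 11, 13 and 14, where Ctss was still above every resident library, they summed to 172, 80.2 and 346 CPM. The part of other cells in the Ctss values was not tested.

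Ctsb (ENSMUSG00000021939.8, chr14:63122462-63145923, plus strand) encodes cathepsin B, an abundant lysosomal cysteine protease. It was at 221, 206, 238, 183 and 271 CPM in untreated resident, 250.1, 222, 167, 292 and 342 CPM in MC903 resident and 272, 365, 244 and 3082 CPM in bone marrow libraries. Apart from library 15, 10.5 times the mean of the other 3, the groups overlapped throughout. The difference from untreated cells was 2.15 ± 0.67 (SE) (adjusted p 0.0818) with library 15 and 0.39 ± 0.22 (SE) (adjusted p 0.232) without it, and none of its 3 comparisons passed. Among genes of 10 CPM or more, with library 15 in, the first of these did (2.26, adjusted p 0.0373). Fdft1 shares 12.1% of its 50-base stretches on the opposite strand.

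Ctsh (ENSMUSG00000032359.14, chr9:90054152-90076089, plus strand) encodes cathepsin H, an aminopeptidase of lysosomes, and was low outside library 15. It was at 0, 0, 0.187, 0.142 and 0 CPM in untreated resident libraries, from counts of 0, 0, 5, 3 and 0. MC903 resident libraries had 3.06, 3.21, 2.04, 0 and 0 CPM, and bone marrow libraries 6.95, 3.27, 0.0853 and 263 CPM. Libraries 6, 7, 8, 11 and 13 had 32 to 166 counts, library 14 had 2, and libraries 9 and 10 had none, where 3 counts would be 0.146 and 0.126 CPM. The edgeR adjusted p against untreated cells was 0.0334 with library 15 and 0.115 without it, and the call was also lost without any 1 of libraries 1, 2, 3, 4, 5 and 11, with no filter on low counts and with limma voom. The DESeq2 Wald test gave Ctsh no adjusted p, and so no call. No fold is given against a group near 0. Bone marrow library 14 lay within the untreated range, so those groups overlapped.

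Ctsl (ENSMUSG00000021477.9, chr13:64359337-64370890, minus strand) encodes cathepsin L, a lysosomal endopeptidase. Untreated resident libraries had 17.5, 39.4, 18.2, 21.2 and 61.7 CPM, MC903 resident libraries 14.6, 9.04, 19.3, 0.0971 and 14.3 CPM and bone marrow libraries 0, 7.72, 0 and 654 CPM. In bone marrow cells it was at 0 counts in libraries 11 and 14 and at 222 counts in library 13, with library 15 254 times their mean. Those 3 libraries were all below the lowest untreated library. The sign of the difference turned with library 15: against untreated cells it was 2.40 ± 1.90 (SE) with it and -3.61 ± 1.79 (SE) without it, and neither passed (adjusted p 0.539 and 0.197). Ctsl transcripts share 26.3% of their 50-base stretches with other genes, and Gm49230 overlaps Ctsl on the same strand, so its counts are uncertain.

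Of the 14 libraries, library 15 held the highest level of 7 of the 10 cathepsins (Ctsa, Ctsb, Ctsc, Ctsh, Ctsl, Ctss and Ctsz), and of 10.95% of all tested genes. Relative to the mean of libraries 11, 13 and 14, its level was 254-fold for Ctsl, 76.6-fold for Ctsh, 20.4-fold for Ctss, 10.5-fold for Ctsb and 5.14-fold for Ctsz. The mean for Ctsl rests on library 13 alone (0, 7.72 and 0 CPM) and that for Ctsh on 6.95, 3.27 and 0.0853 CPM, so their ratios are rough. The ratios were smaller for Ctsc (2.30) and Ctsa (1.85) and below 1 for Ctsd (0.579), Ctsg (0.484) and Ctse (0.240). The complement gene C1qb was at 2239 CPM, the lysozyme gene Lyz2 at 4789 CPM and the CSF1 receptor gene Csf1r at 1094 CPM in that library. In libraries 11, 13 and 14, C1qb was at 3.94, 2.71 and 0 CPM. The part of these other markers in the cathepsin levels of library 15 was not tested.

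**Figure D3:**
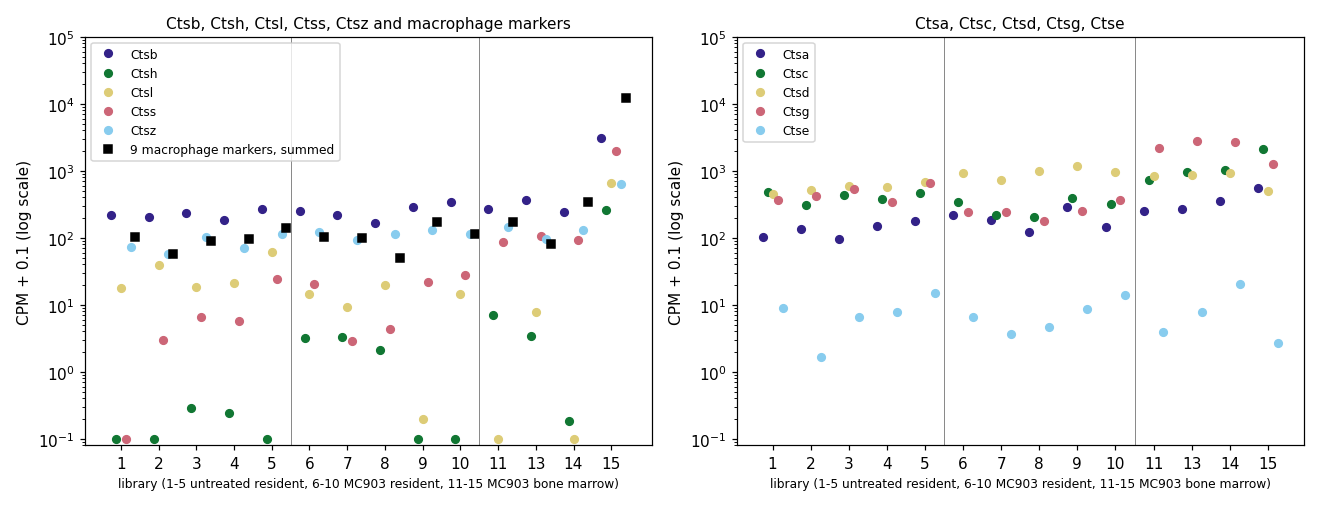
CPM plus 0.1, on a log axis, in each library; the left panel shows the 5 cathepsins with the highest ratio of library 15 to the other bone marrow libraries and, as black squares, the sum of 9 macrophage markers, and the right panel the other 5. The squares and the left-panel genes are highest in library 15, whereas Ctsd, Ctsg and Ctse in the right panel are lower there than the mean of libraries 11, 13 and 14.

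Levels of different genes were compared per kilobase of gene length, which was 1033 bases for Ctsg, 2351 for Ctsd and 1441 for Ctsz. It was 4715 to 6489 bases for Ctsa, Ctsb, Ctsc and Ctsl. These lengths were not checked against the transcripts made in these cells, and the order depends on them. In CPM alone Ctsd was above Ctsg in untreated cells (means 562 and 469). In MC903 resident cells Ctsg (254) then came after Ctsd (954), Ctsc (296) and Ctsb (255). In untreated resident cells Ctsg was first, at a mean of 454 CPM per kb, and Ctsd second, at 239 CPM per kb, and their ranges over libraries did not overlap. Ctsc, at 71.7, and Ctsz, at 57.7 CPM per kb, followed with overlapping ranges, then Ctsb (37.0) and Ctsa (28.0), whose ranges overlapped too. Ctss, Ctsl and Ctse lay between 2.49 and 5.80 CPM per kb, each overlapping the next, and Ctsh was last, at 0.0147 CPM per kb.

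In MC903 resident cells Ctsd came first, at 406 CPM per kb, and Ctsg second, at 246 CPM per kb, but here their ranges overlapped. Ctsz (79.4), Ctsc (51.0), Ctsb (42.1) and Ctsa (40.5) followed, each overlapping the next. In bone marrow libraries 11, 13 and 14 Ctsg was again first, at 2489 CPM per kb, then Ctsd at 372 and Ctsc at 156 CPM per kb, with no overlap between these neighbours. Ctsz (86.6), Ctss (70.2), Ctsa (62.5) and Ctsb (48.5) came next and overlapped in turn. In library 15 alone the highest was Ctss, at 1428 CPM per kb.

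The 10 genes summed to 1691 to 2467 CPM in untreated resident, 1706 to 2548 CPM in MC903 resident and 4503, 5478, 5545 and 10959 CPM in bone marrow libraries 11, 13, 14 and 15. The resident groups overlapped, and the bone marrow libraries were all above them. The make-up of the sum differed more than its size between the resident groups: Ctsd made up 25.8% to 33.0% of it in untreated and 41.9% to 54.9% in MC903 resident libraries. Ctsg made up 19.97% to 26.8% and 9.74% to 15.9%, in the same order. In bone marrow libraries 11, 13 and 14 Ctsg held 48.7% to 51.0%. In library 15 it held 11.4%, behind Ctsb with 28.1%, Ctsc with 19.0% and Ctss with 17.7%.

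**Figure D4:**
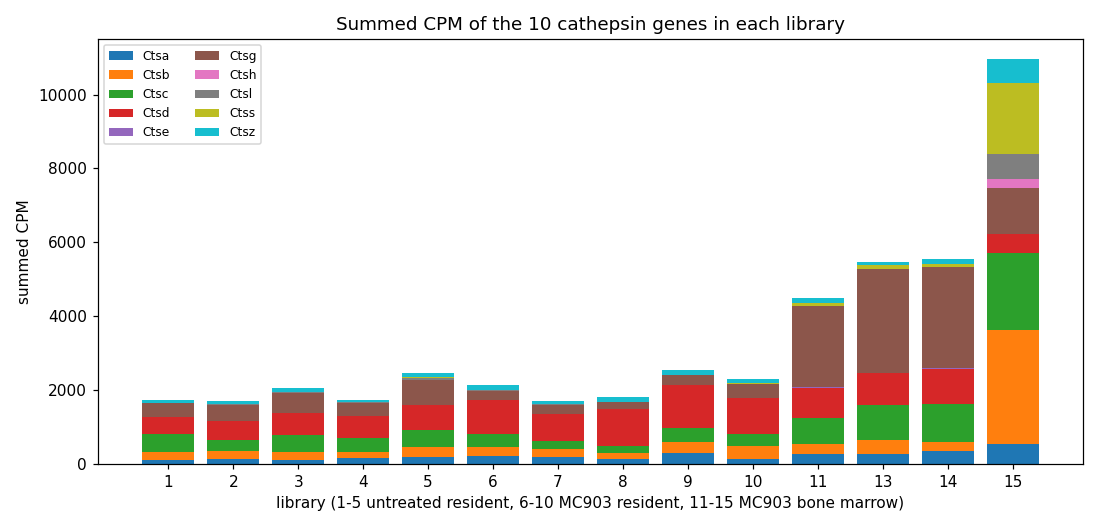
Summed CPM of the 10 cathepsin genes in each library, stacked by gene. The resident libraries lie between 1691 and 2548 CPM, libraries 11, 13 and 14 between 4503 and 5545 CPM with Ctsg as the largest part, and library 15 reaches 10959 CPM with Ctsb as the largest part.

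Across libraries, on log2 CPM, Ctsc and Ctsg had a Pearson correlation of 0.83 over 14 libraries and 0.93 over the 13 without library 15. Ctsb and Ctsz had 0.90 over 14 libraries and 0.42 without library 15. For Ctsd and Ctsz the value went the other way, from 0.04 to 0.80. Ctsd and Ctsg, the pair that ranked highest per kilobase of gene length in both resident groups, were at -0.04 and 0.05. These values describe libraries that share groups and library 15, and no test is attached to them.

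Among 6059 protein-coding genes of mean level 20 CPM or more, the 3 with the highest Pearson correlation with Ctsg over 14 libraries were Ier3 (0.96), Btg1 (0.96) and Lmo4 (0.95), and the same 3 led without library 15. For Ctsc they were Ehd1 (0.94), Pepd (0.91) and Man2b1 (0.91) over 14 libraries. Without library 15 they were Itgb7 (0.95), Btg1 (0.94) and Ier3 (0.93), of which Itgb7 encodes the integrin chain named in the sort and the other two also led for Ctsg. Man2b1 encodes a lysosomal mannosidase. For Ctsd the leading genes were Homer2 (0.93), H2-T22 (0.91) and Tmem208 (0.91), and without library 15 Tpsb2 (0.94), Ndufa13 (0.94) and Homer2 (0.93), the first of which encodes a mast cell tryptase. Ctsa was led by Prelid1 (0.91), Dbi (0.90) and Atp6v0a1 (0.90), the last a subunit of the lysosomal proton pump, and without library 15 by Phb2 (0.93), Ppie (0.91) and Nxt1 (0.89).

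Leading genes thus changed without library 15 for Ctsa, Ctsc and Ctsd, and they did so for the members whose call was lost without it. Ctsz had Ctsb (0.90) as its leading gene over 14 libraries and was led by Farsa (0.89), Suv39h1 (0.88) and Srd5a3 (0.88) over 13. Ctsh was led by Ccl6 (0.87), Pgd (0.83) and Ccl8 (0.83) over 14 and by Kcnab2 (0.79), Ecd (0.79) and Adgrg3 (0.77) over 13. Ctss kept 2 of its 3: Pgls (0.95), Cnp (0.92) and Selplg (0.92) over 14 libraries and Cnp (0.93), Cox5a (0.93) and Pgls (0.93) over 13.

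Granule serine proteases, among them chymases of the kind that cathepsin C activates, form a list of 11 genes, of which 8 were tested. The list also holds the tryptases Tpsb2 and Tpsab1, which are not taken here to depend on cathepsin C. In MC903 resident against untreated cells 3 were higher and none lower, beside 0.571% and 1.68% of all genes: the tryptase Tpsb2 (0.99 ± 0.16 (SE) on the log2 scale, adjusted p 0.00104), the chymase Mcpt4 (0.75 ± 0.14 (SE), adjusted p 0.00377) and the chymase Cma1 (0.75 ± 0.16 (SE), adjusted p 0.0135). In bone marrow against MC903 resident cells 3 were higher and 1 lower, beside 1.32% and 0.952%. Gzmb, encoding granzyme B, rose from a mean of 226 to 9722 CPM (5.42 ± 0.79 (SE), adjusted p 0.00365) and Tpsab1 from 3172 to 5861 CPM (0.88 ± 0.14 (SE), adjusted p 0.00163). Mcpt1, a mucosal mast cell protease, was called higher although bone marrow libraries ranged from 1.07 to 1767 CPM. Mcpt4 fell from 23615 to 8746 CPM (-1.44 ± 0.15 (SE), adjusted p 1.43e-05).

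Against untreated cells 5 of these 8 were higher in bone marrow cells and Mcpt4 was lower, beside 3.49% and 3.37% of all genes. Cma1 (1.02 ± 0.17 (SE)), Gzmb (5.50 ± 0.79 (SE)), Tpsb2 (0.79 ± 0.17 (SE)) and Mcpt2 (7.45 ± 1.32 (SE)) had the lowest p-values. The median log2 fold change over the 8 genes was 0.62, 2.32 and 2.42 in the 3 comparisons, beside 0.24, -0.28 and -0.14 over all genes. How much sequence the mast cell proteases share was not measured here, so the split of reads among them is uncertain. Ctsc and these proteases did not share a direction in every comparison: under MC903 in resident cells, 3 of the proteases were higher while Ctsc was at -0.49 ± 0.25 (SE) and did not pass.

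Inhibitors of cathepsins moved in both directions. Of 4 tested cystatins, which block cysteine cathepsins, Cst3 (cystatin C) was higher in MC903 resident than in untreated cells (0.79 ± 0.21 (SE), adjusted p 0.0496) and in bone marrow than in untreated cells (1.15 ± 0.22 (SE), adjusted p 0.00189). None was called between bone marrow and MC903 resident cells. Of 5 tested serine protease inhibitors of the list, Serpina3g was at 0 to 0.904 CPM in untreated, 4.04 to 34.2 CPM in MC903 resident and 27.9 to 75.7 CPM in bone marrow libraries. It reached the level of the low-count filter in 2 untreated libraries, where the filter needs 4, so it was tested through the MC903 groups. Its calls against untreated cells thus had their direction fixed, and nothing is read from them. Serpinb6a, an intracellular inhibitor of cathepsin G, was at 421 to 513 CPM in untreated, 199.95 to 407 CPM in MC903 resident and 84.2 to 180.0 CPM in bone marrow libraries. Its level in bone marrow cells was lower than in MC903 resident cells (-1.18 ± 0.24 (SE), adjusted p 0.0103) and than in untreated cells (-1.92 ± 0.25 (SE), adjusted p 4.38e-05), and no libraries overlapped in either. Serpinb1a, which inhibits neutrophil-type serine proteases including cathepsin G, fell by 0.75 ± 0.18 (SE) against untreated cells (adjusted p 0.0130), to a mean of 13055 from 21992 CPM. In the fit without library 15, Serpinb1a (-0.59 ± 0.15 (SE), adjusted p 0.0400) and Serpinb6a (-0.75 ± 0.20 (SE), adjusted p 0.0402) were also lower in MC903 resident than in untreated cells.

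Genes for sorting cathepsins to lysosomes gave 1 call of 9 in resident cells under MC903, M6pr, the cation-dependent mannose 6-phosphate receptor, which was lower (-0.91 ± 0.17 (SE), adjusted p 0.00361). It was also lower in bone marrow than in untreated cells (-0.68 ± 0.18 (SE), adjusted p 0.0238), and without library 15 the difference was of like size but did not pass (-0.62 ± 0.20 (SE), adjusted p 0.0641). Psap, encoding prosaposin, was higher in bone marrow cells than in MC903 resident cells (1.52 ± 0.34 (SE), adjusted p 0.0200), against 0.81 ± 0.25 (SE) without library 15, which did not pass (adjusted p 0.0818). Sort1, encoding sortilin, was at 0 in all untreated libraries and at 0.703 to 21.3 CPM in bone marrow libraries. No untreated library reached the filter's level, so its calls against untreated cells likewise had a fixed direction. The shares of all genes called are those given beside the proteases.

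Of 25 lysosomal hydrolases, none was called in resident cells under MC903 (median log2 fold change 0.0057). In bone marrow against MC903 resident cells 2 were higher and none lower, Man2b1 (1.72 ± 0.22 (SE), adjusted p 0.000131) and Glb1, the β-galactosidase that cathepsin A protects (1.53 ± 0.28 (SE), adjusted p 0.00362). The medians in the bone marrow comparisons were 0.42 against MC903 resident and 0.30 against untreated cells, and 0.31 and 0.15 without library 15. Against untreated cells 6 were higher and none lower, beside 3.49% and 3.37% of all genes, and the 2 called against MC903 resident cells stand beside 1.32% and 0.952%. Glb1 was at a mean of 143 against 28.9 CPM and Man2b1 at 625 against 179 CPM. Gusb, a glucuronidase, was also higher (1.10 ± 0.24 (SE), adjusted p 0.00536), as was Dnase2a, a lysosomal DNase (0.92 ± 0.24 (SE), adjusted p 0.0199).

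Among 16 lysosomal membrane and proton pump genes, called subunits of the pump went in both directions. Atp6v0a1, of its membrane part, was higher in bone marrow cells than in MC903 resident cells (1.19 ± 0.22 (SE), adjusted p 0.00365) and than in untreated cells (1.61 ± 0.22 (SE), adjusted p 5.71e-05). Atp6v1b2 and Atp6v1h, of its cytosolic part, were lower in MC903 resident than in untreated cells (-1.17 ± 0.25 (SE) and -1.01 ± 0.21 (SE), adjusted p 0.0103 and 0.0104). They were also lower in bone marrow than in untreated cells, as was Atp6v1a, with log2 differences of -1.54, -0.81 and -0.90. Without library 15 Atp6v1h was at -0.65 ± 0.23 (SE) against untreated cells (adjusted p 0.0994). None of the 4 transcription factors of the TFEB and MITF family (Tfeb, Tfe3, Tfec and Mitf) was called in any comparison. The shares of all genes called were 2.25% (resident comparison), 2.27% (bone marrow against MC903 resident) and 6.87% (bone marrow against untreated). Of the other 13 cathepsin genes in the table, 7 were tested and 1 was called, Ctso. It was lower in bone marrow than in untreated cells (-1.27 ± 0.33 (SE), adjusted p 0.0185), beside 3.37% of all genes lower. The median over these 7 was -4.17 against MC903 resident and -1.51 against untreated cells, and -6.47 and -4.01 over the 9 tested without library 15, lower than for the 10 cathepsins described here. It rests on genes near 0: Cts7, Cts8, Ctsj and Ctsm were at 0 CPM in libraries 11, 13 and 14, and fitted values against 0 have no fixed size. Ctsk, encoding cathepsin K, was not tested. It is named, like those 4, after its values were seen, and was at 457 CPM in library 15 and at 0 CPM in libraries 11, 13 and 14.

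Without library 15, Man2b1 (1.57 ± 0.23 (SE)) and Glb1 (1.54 ± 0.30 (SE)) were again the 2 hydrolases called higher between bone marrow and MC903 resident cells, beside 1.35% of all genes higher and 1.54% lower. Against untreated cells 7 were higher, the same 6 and Gaa, beside 2.95% higher and 3.41% lower, with Glb1 at 2.30 ± 0.30 (SE) and Man2b1 at 1.64 ± 0.23 (SE). Of the membrane and pump genes, Atp6v0a1 was higher in both comparisons (1.16 ± 0.24 (SE) and 1.58 ± 0.24 (SE)). Atp6v1b2 (-1.79 ± 0.27 (SE)), Atp6v0c (-0.71 ± 0.21 (SE)) and Atp6v1a (-0.86 ± 0.26 (SE)) were lower against untreated cells. Atp6v0c, like Atp6v0a1, belongs to the membrane part, so the called subunits did not divide by part in this fit.

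The same shares of all genes stand beside the other lists in this fit. Among the proteases, of which 9 were then tested, Gzmb (5.66 ± 0.81 (SE)), Tpsab1 (0.93 ± 0.15 (SE)), Mcpt1 and Mcpt8 were higher against MC903 resident cells, and Mcpt4 was lower (-1.49 ± 0.16 (SE)). Mcpt8 is also one of the basophil markers given above. Against untreated cells 6 were higher, with Mcpt8 added and Cma1 at 1.13 ± 0.16 (SE), and Mcpt4 was lower. The medians over these 9 were 0.93 and 1.13 in the bone marrow comparisons, beside -0.84 and -0.62 over all genes. Serpinb6a was lower in bone marrow cells by both comparisons (-1.43 ± 0.24 (SE) and -2.18 ± 0.25 (SE)), and Cst3 (0.92 ± 0.21 (SE)) was higher and Ctso (-1.25 ± 0.35 (SE)) lower than in untreated cells. Of the macrophage markers, 6 were tested in either fit, and in either 1 was called higher in bone marrow cells against MC903 resident cells and none against untreated cells. Their median log2 fold change against untreated cells went from 8.09 with library 15 to 1.02 without it.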

How the data were processed

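RNA was measured in 14 libraries. The deposited values were raw counts of reads per gene, whole numbers, per the file headers. The submitters' processing notes name STAR, featureCounts and mm10. Versions and the strand setting are not given in the sources used here. Per the labels' protocols, cDNA was made with SMART-Seq HT and libraries with Nextera XT, without molecular identifiers, so floors (3 counts) cover counting error only. All 14 count columns were used.

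Of 55487 gene identifiers, 55394 had a symbol and 55094 the same version in GENCODE M21 (GRCm38), from which positions are given. Genes were filtered with filterByExpr (minimum count 10, minimum total 15) by group, leaving 21014, normalized by TMM and fitted together over 3 groups with edgeR 4.0.16 in R 4.3.3 (robust glmQLFit, glmQLFTest). Benjamini-Hochberg adjusted p-values run over all genes tested, with calls under 0.05. The common dispersion was 1.33. The standard error of a log2 fold change is its size over the root of the F statistic. Correlations used log2 CPM (prior count 2). The script was tested on simulated data.

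Alternatives were DESeq2 size factors or TMM from genes averaging 10 CPM or more, no filter or a mean of 10 CPM, protein-coding genes, the DESeq2 1.42.0 Wald test, limma 3.58.1 voomWithQualityWeights, pairs of groups, offsets for length or GC content (20 bins), a minimum log2 fold change of 1, and libraries left out (each in turn; library 15; 7, 8 and 15). The GC offset, its form, the GATAA search and the omission of library 15 from lists, correlations and overlaps, and of Ctsh from the family's counts, were chosen after seeing the data. All 10 members were named, and from each list the called genes up to the 4 with the lowest p-values. For each called member, the 3 genes most correlated over libraries were also named. Members and lists were chosen with earlier results of these data known. Cstdc4, Cstdc5 and Cstdc6 were not matched by symbol. Results of 2 genes of the lists are not reported here, and counts, medians and sums leave them out.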

Additional observations from a re-analysis of the deposited data

Results flagged for a closer look

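Of 30 tests (10 genes in each of 3 groups), 6 found a library far from the others of its group by the ratio of its gap to the group's range, where chance gives about 1 in 20. Library 15 was the library in 5 of them, all in the bone marrow group: Ctsb at 3082 CPM (others 244 to 365), Ctsh at 263 CPM (others 0.0853 to 6.95), Ctsl at 654 CPM (others 0 to 7.72), Ctss at 1939.8 CPM (others 85.2 to 107) and Ctsz at 641 CPM (others 95.5 to 147). The remaining one was Ctss at 24.5 CPM in untreated library 5, against 0 to 6.45 CPM in the other 4.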

How the results depend on the processing

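Of 633 values of single genes under other settings, 563 kept their direction and side of the threshold, 33 no longer passed, 17 newly passed and 20 turned sign. Of 130 counts of calls, 99 stayed within 1.5 times. Leaving out 1 library at a time, all genes called ran from 312 to 516 (resident comparison), 302 to 704 (bone marrow against MC903 resident) and 1140 to 1549 (bone marrow against untreated), and cathepsins called from 0 to 2, at 2, and from 3 to 6. Ctse then ran from -0.43 to 0.28, -0.66 to 0.57 and -0.75 to 0.50 in the same order, and Ctsl from -2.15 to 4.26 and -3.61 to 2.83 in the bone marrow comparisons. Leaving out library 15 gave the lowest Ctsl values, and the resident call of Ctsd was lost without library 2.

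In the resident comparison Ctse, negative in the reported fit, was 0.0062 with DESeq2 size factors, 0.062 with TMM from higher genes, 0.0072 with DESeq2, 0.10 with voom and 0.28 without libraries 7, 8 and 15. Bone marrow minus MC903 resident values turned to -3.90 (voom) and -1.92 (without 7, 8 and 15) for Ctsl and to -0.025 (without 7, 8 and 15) for Ctsb, and bone marrow minus untreated values of Ctsl to -5.84 and -3.63. The cathepsins called in the resident comparison were 2 with no filter, genes of 10 CPM or more, protein-coding genes, DESeq2, the groups compared alone, the length offset or library 15 left out, and 0 with a minimum log2 fold change of 1, which left 1 against untreated in bone marrow cells. No filter gave 4 cathepsins and 748 genes between bone marrow and MC903 resident cells, and the groups compared alone gave 315 genes there. All genes called in the 3 comparisons were 1072, 1720 and 2757 with DESeq2, 1357, 2073 and 2212 with voom, and 30, 76 and 292 with the minimum fold. Without libraries 7, 8 and 15 the resident comparison had 253. Other scalings moved the median of all genes from 0.24 to 0.40 and 0.45 in the resident comparison and from -0.28 to -0.43 and -0.44 between bone marrow and MC903 resident cells. The cause was not tested. No paired analysis was possible because the library numbers form 1 running series, so groups share none. Levels of 0 are limits of depth, where 3 counts were 0.104 to 0.191 CPM.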

Other observations

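Library 14 held more Lyz2 (257 CPM) and Csf1r (10.3 CPM) than libraries 11 and 13, where Csf1r was at 0. Its Ctsh was at 0.0853 CPM, its Ctsl at 0 and its Ctss at 93.5 CPM. In MC903 resident cells, Ctsh had counts in libraries 6, 7 and 8, which had 28790, 34560 and 35246 genes with a count, and none in libraries 9 and 10, which had 23941 and 22632. Their total counts were 17615917, 13990683 and 13068078, and 21397836 and 25287381, so the libraries with Ctsh were the shallower ones. The macrophage markers summed to 103, 99.1, 49.4, 173 and 114 CPM in libraries 6 to 10.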
